A study of Mus musculus with 6 samples.

Results

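The nuclear pore, the nuclear lamina and the importin transport receptors were examined in N2A cells after knockdown of the long non-coding RNA *Paupar*. The group holds 51 genes of the 19938 named genes on the array. Its members were taken by symbol, and earlier results of these data were known when the symbols were chosen. They are nucleoporins (Nup and a number), importin alpha and beta genes (Kpna, Kpnb, Ipo) and a short list of pore, Ran, export and lamina genes. *Tpr* was also on that list and was not analysed here. N2A is a mouse neuroblastoma cell line, and it was grown in medium with 10% serum. The knockdown group (3 samples) received 1.5 µg of plasmid coding for a hairpin against *Paupar*, by transient transfection. In the control group (3 samples), cells received a non-targeting vector in the same way, so that both groups carried a transfected vector. RNA was taken after 2.5 days according to the labels and measured on Affymetrix arrays (Mouse Gene 1.0 ST). The study's methods call the samples biological replicates, and a single hairpin was used. The level of *Paupar* itself was not analysed here.

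The nuclear pore complex is the protein channel through which proteins and RNA cross the nuclear envelope. Rings of scaffold nucleoporins are held in the membrane by anchor proteins, and nucleoporins rich in phenylalanine-glycine repeats fill the channel. Importins carry proteins into the nucleus and exportins carry cargo out, while the small GTPase RAN, bound to GTP in the nucleus and to GDP in the cytoplasm, gives the transport its direction. The lamina is the mesh of lamin filaments under the inner nuclear membrane. Cells that divide take the pores, the lamina and the envelope apart in mitosis and build them again in each daughter nucleus.

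Each value below is the deposited log2 RMA value of 1 transcript cluster, the array's set of probes for a gene, so a difference of 1 is a change by a factor of 2. Levels of a gene, differences between 2 genes and means over genes are compared between arrays. The level of 1 gene is not ranked against that of another. The array medians over the named genes lay between 7.85 and 7.92. The correlation between any 2 arrays over these genes lay between 0.990 and 0.998. Knockdown replicate 3 correlated slightly better with control replicate 3 (0.9959) than with knockdown replicates 1 (0.9953) and 2 (0.9955), and the lowest correlations were those of control replicate 1 with knockdown replicates 1 and 2 (0.990). Knockdown and control were compared by limma with Benjamini-Hochberg adjustment over the 9969 genes that passed a filter on variation, at a threshold of 0.05. Across all of them 2.39% (238 genes) rose and 5.16% (514 genes) fell, 7.54% in either direction. Of 11 measured neuroblastoma markers, 3 fell, namely *Dbh* (log2 fold change -1.09), *Th* (-0.68) and *Chgb* (-0.45). Another 6 were tested and did not pass, and 2 lay below the filter. Of the 11, 8 had negative and 3 had positive values. *Gata2* went the other way, with 0.24 and all knockdown arrays above all control arrays (adjusted p = 0.197 by limma), and *Mycn* had 0.00. Relative to the control mean, the mean of the 11 markers lay between -0.30 and -0.20 on the knockdown arrays and between -0.05 and 0.05 on the control arrays. Of the markers of other cell types, 1 of 7 glial, 6 of 8 fibroblast and 4 of 7 blood and endothelial genes passed the filter. Of these tested genes, 0 passed the threshold. The fibroblast marker *Pdgfrb* had -0.75 with overlapping groups (adjusted p = 0.0807 by limma). Of the 8 fibroblast genes, 5 had positive and 3 had negative values. The part of cell composition in the results was not tested. In bulk samples, fewer cells of a type and less RNA per cell cannot be told apart.

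Among the 51 members, 28 passed the filter on variation. Of these, 5 rose and 0 fell in knockdown cells, which is 9.8% of all 51 members, beside 1.19% of all 19938 genes that rose and 2.58% that fell. The genes that rose were *Ndc1* and *Pom121*, both membrane anchors of the pore, *Nup54* of the central channel, *Kpna4*, an importin alpha, and *Lmnb2*, which encodes lamin B2. Another 23 members were tested and did not pass, and 23 lay below the filter. The shares of all genes, here and below, include many dim genes (genes of low signal), of which the list holds few. A filter on dim genes, used in place of variation, kept 49 of the 51 members and 9969 of the 19938 genes. At an unadjusted p under 0.05 there were 15 members among the 28 tested, where 26.3% of all tested genes were. The calls depended on which arrays were kept. With knockdown replicate 1, knockdown replicate 2, control replicate 1 or control replicate 3 left out, 0 of 25, 25, 25 and 26 tested members passed. Few genes of any kind did: 0.401%, 0.251%, 0.481% and 0.251% of all tested genes rose, and 1.62%, 1.13%, 1.95% and 0.873% fell. In these fits 9, 11, 12 and 12 members had an unadjusted p under 0.05, where 17.0%, 15.3%, 30.5% and 20.6% of all tested genes did. Without knockdown replicate 3, 8 of 26 tested members passed, all higher, where 3.35% of all tested genes rose and 9.08% fell. Without control replicate 2, 6 of 27 passed, all higher, where 2.69% of all tested genes rose and 5.2% fell.

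**Figure D1:**
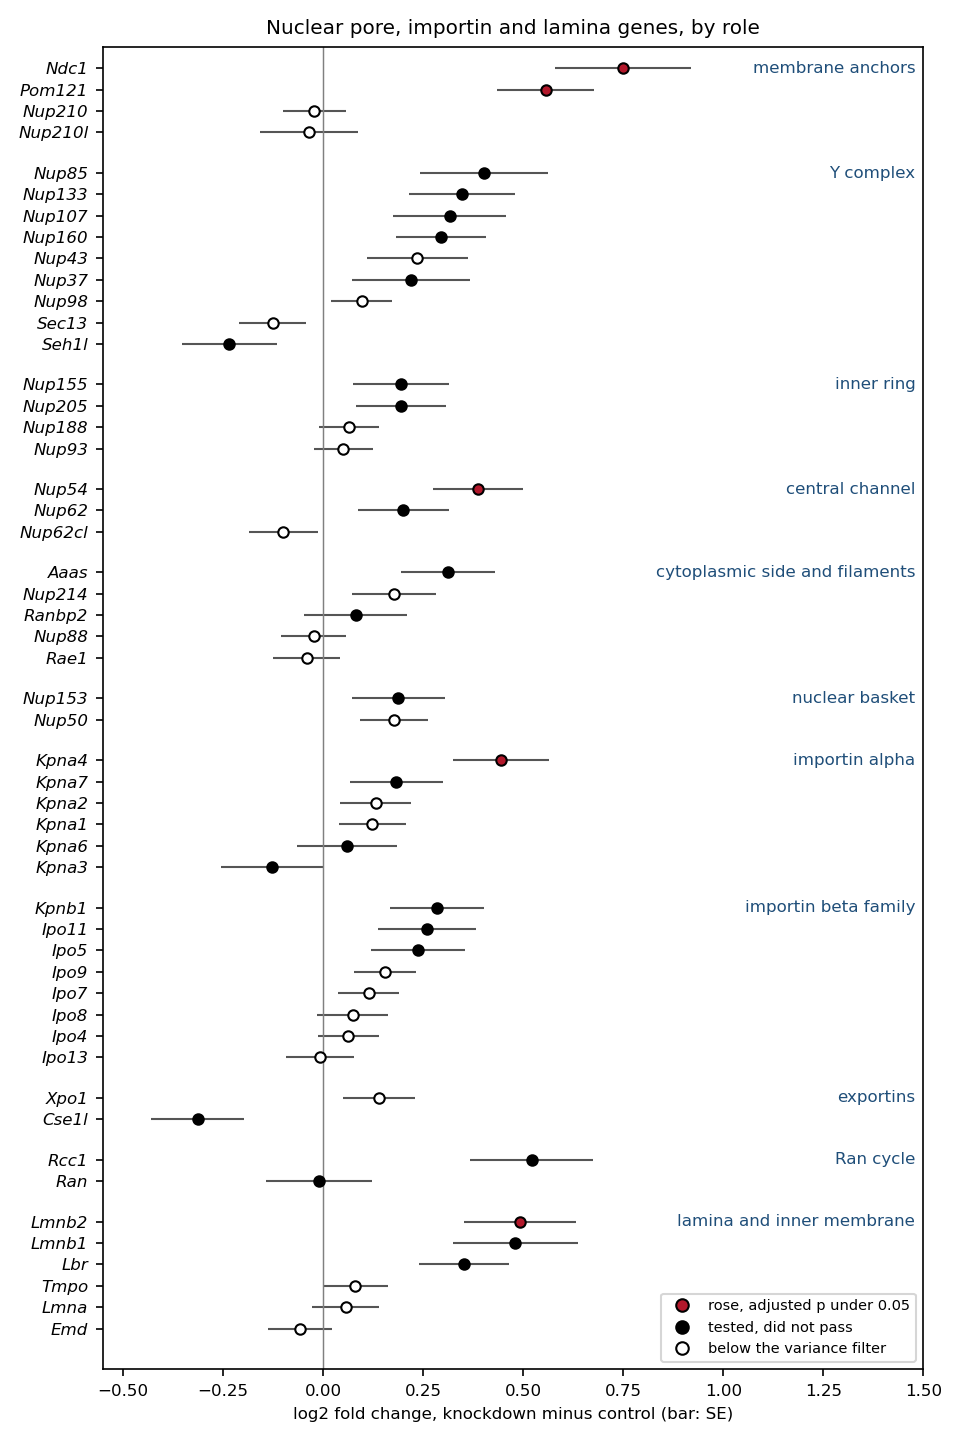
Log2 fold change (x axis, knockdown minus control) of the 51 members, grouped by role down the page, with the moderated standard error as a bar. Red points are the 5 members that rose, from 0.39 (*Nup54*) to 0.75 (*Ndc1*), black points were tested and did not pass, and open points lay below the variance filter and come from a fit to all genes.

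The promoters shown here are those of the 5 members that rose, which belong to different parts of the transport machinery. Each is the stretch of 250 bases before the transcription start, from RefSeq on the GRCm38.p6 assembly, read 5′ to 3′ on the strand of the gene. Capitals mark matches, on either strand, to short motifs known from genes of the cell cycle and from housekeeping genes: the CHR words TTTGAA and TTCGAA, the CCAAT box (CCAAT), the GC box (GGGCGG) and 4 E2F words (TTTCCCGC, TTTGGCGC, TTTGCCGC and TTTCGCGC).
Ndc1, Entrez gene 72787, chr4:107367797-107368046, plus strand: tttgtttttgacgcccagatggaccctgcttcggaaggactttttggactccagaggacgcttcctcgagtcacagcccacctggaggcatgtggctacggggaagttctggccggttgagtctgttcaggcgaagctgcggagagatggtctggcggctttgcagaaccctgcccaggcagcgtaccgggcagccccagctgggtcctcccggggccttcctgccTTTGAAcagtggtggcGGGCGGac
Pom121, Entrez gene 107939, chr5:135394547-135394796, minus strand: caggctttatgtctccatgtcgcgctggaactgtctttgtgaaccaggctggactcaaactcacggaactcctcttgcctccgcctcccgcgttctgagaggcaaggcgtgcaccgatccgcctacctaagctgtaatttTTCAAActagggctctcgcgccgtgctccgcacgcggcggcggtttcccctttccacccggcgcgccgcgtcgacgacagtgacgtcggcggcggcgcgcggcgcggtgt
Nup54, Entrez gene 269113, chr5:92435200-92435449, minus strand: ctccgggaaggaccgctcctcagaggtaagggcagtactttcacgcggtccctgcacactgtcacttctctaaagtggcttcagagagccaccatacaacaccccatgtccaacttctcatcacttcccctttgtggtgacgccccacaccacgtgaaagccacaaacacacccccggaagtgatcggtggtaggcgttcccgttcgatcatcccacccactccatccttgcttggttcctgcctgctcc
Kpna4, Entrez gene 16649, chr3:69127093-69127342, minus strand: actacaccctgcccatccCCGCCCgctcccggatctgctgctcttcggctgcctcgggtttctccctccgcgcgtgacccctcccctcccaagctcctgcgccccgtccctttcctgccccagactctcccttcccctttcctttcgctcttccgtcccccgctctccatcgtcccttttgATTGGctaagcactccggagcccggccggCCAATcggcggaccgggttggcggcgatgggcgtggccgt
Lmnb2, Entrez gene 16907, chr10:80918246-80918495, minus strand: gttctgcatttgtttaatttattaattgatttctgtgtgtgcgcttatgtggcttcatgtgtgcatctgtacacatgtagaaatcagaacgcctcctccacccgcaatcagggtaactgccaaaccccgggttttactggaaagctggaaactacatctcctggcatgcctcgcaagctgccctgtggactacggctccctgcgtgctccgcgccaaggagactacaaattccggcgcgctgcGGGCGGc

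In these windows, the *Ndc1* promoter held a CHR word at position -24 and a GC box at -8, counted from the start site to the first base of the match. *Pom121* held a CHR word at -110 on the opposite strand. *Kpna4* held CCAAT at -69 on the opposite strand and at -40 on its own strand, and a GC box at -232 on the opposite strand. *Lmnb2* held a GC box at -7, and its second annotated start at chr10:80906413-80906662 had none of these motifs. *Nup54* had none of them. RefSeq promoters were at hand for 42 of the 51 members (50 promoters), and shares refer to windows of 300 bases, 250 before and 50 after the start. The GC box was present in 64.0% of the member promoters and 35.7% of all 32851 promoters, CCAAT in 48.0% and 37.4%, a CHR word in 28.0% and 19.2%, and an E2F word in 6.00% and 2.26%. The median GC content was 63.2% in member promoters and 52.7% in all promoters, and the GC box and the E2F words are themselves rich in G and C. The E2F words were found for *Ipo7*, *Nup210* and *Tmpo* and for 0 of the 5 members that rose. A match describes the letters only, and the E2F words and the GC box can overlap.

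The membrane anchors hold the pore in the envelope. NDC1 spans the membrane where the inner and outer membranes meet and is needed to insert new pores, and POM121 is a transmembrane nucleoporin that acts early in pore assembly. *Ndc1* had log2 values of 10.65, 10.43 and 10.21 in knockdown replicates 1, 2 and 3, against 9.28, 9.96 and 9.80 in control replicates 1, 2 and 3. All knockdown arrays were above all control arrays, and control replicate 1 lay well below the other two controls. The log2 fold change was 0.75 ± 0.17 (SE), a 1.68-fold higher level in knockdown cells, with an adjusted p of 0.0193. *Pom121* had 11.31, 11.18 and 11.07 in knockdown cells, against 10.54, 10.60 and 10.74 in control cells. The groups did not overlap and were spread evenly (SD 0.119 and 0.103). Its log2 fold change was 0.56 ± 0.12, 1.47-fold, with an adjusted p of 0.0165. The other two anchors lay below the filter. *Nup210*, a membrane glycoprotein of the pore, had a log2 fold change of -0.02 with a 95% interval from -0.20 to 0.16. *Nup210l*, a related gene, had -0.04, and its 9 clusters ranged from -0.31 to 0.16.

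Nucleoporins of the Y complex, the scaffold subunit of the outer rings, gave 0 calls among 6 tested of 9 members. The median log2 fold change was 0.24, with 7 members above and 2 below 0, where 58.4% of all genes were above 0. The knockdown arrays lay above all control arrays for 4 of the 9, beside 12.8% of all genes. *Nup85* had the largest value that did not pass, 0.40 ± 0.16 with an adjusted p of 0.132. Its values were 11.36, 11.23 and 10.94 in knockdown cells, against 10.41, 10.98 and 10.92 in control cells. Knockdown replicate 3 lay within the control range. *Nup160*, which was tightly spread, had 11.50, 11.49 and 11.41 in knockdown cells, against 11.16, 11.18 and 11.18 in control cells, a difference of 0.29 ± 0.11 (adjusted p = 0.121). *Nup133* had 10.73, 10.59 and 10.46 in knockdown cells, against 10.06, 10.45 and 10.23 in control cells, and the lowest knockdown value just cleared the highest control. Its log2 fold change was 0.35 (adjusted p = 0.119), and *Nup107*, whose groups overlapped, had 0.32 (adjusted p = 0.172). *Seh1l*, a small subunit of the same complex that also serves in the GATOR complex of amino acid sensing, had the opposite sign. It measured 9.71, 9.76 and 9.85 in knockdown cells, against 9.88, 10.10 and 10.05 in control cells, and every knockdown value was below every control value (log2 fold change -0.23, adjusted p = 0.221). *Sec13*, shared with the coat of vesicles that leave the endoplasmic reticulum, had -0.13 and lay below the filter. The remaining members, *Nup43*, *Nup37* and *Nup98*, had 0.24, 0.22 and 0.10.

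The inner ring surrounds the channel and links it to the membrane. Its members *Nup155*, *Nup205*, *Nup188* and *Nup93* all had positive log2 fold changes, from 0.05 to 0.19, as did 58.4% of all genes. Of the 2 tested, 0 passed. *Nup155* had the largest, 0.19 ± 0.12 (adjusted p = 0.300), with overlapping groups. In the central channel, *Nup54*, a phenylalanine-glycine nucleoporin that forms a complex with NUP62 and NUP58, rose. It had 11.13, 11.14 and 11.15 in knockdown cells, against 10.78, 10.76 and 10.73 in control cells. This was the tightest pair of groups among the 5 members that rose, with SDs of 0.00927 and 0.0286. The log2 fold change was 0.39 ± 0.11, 1.31-fold, and the adjusted p of 0.0491 was close to the threshold. Its partner *Nup62* had 11.73, 11.79 and 11.78 in knockdown cells, against 11.52, 11.55 and 11.63 in control cells. These did not overlap, but the difference of 0.20 ± 0.11 did not pass (adjusted p = 0.266), and the older symbol of the third partner, *Nupl1*, gave 0.04. *Nup62cl*, a relative of *Nup62*, had values from 4.97 to 5.25 on all arrays and a difference of -0.10.

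On the cytoplasmic side and the filaments, where export cargo is released, 0 of 2 tested members passed and the median was 0.08 over 5 members. *Aaas*, which encodes aladin, had the largest difference, 0.31 ± 0.12, with an adjusted p of 0.118. It measured 11.99, 11.93 and 11.90 in knockdown cells, against 11.49, 11.66 and 11.73 in control cells. The groups did not overlap. *Ranbp2*, the large filament protein that binds RAN and the RAN GTPase activator, had 0.08, *Nup214* 0.18, *Nup88* -0.02 and *Rae1*, a mRNA export factor, -0.04, with overlapping groups for each of these 4. Both basket members were above all controls on every knockdown array, as were 12.8% of all genes. *Nup153*, which binds lamins and importins, had a log2 fold change of 0.19 ± 0.12 (adjusted p = 0.304), and *Nup50*, which helps release importin alpha from its cargo, had 0.18 below the filter.

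**Figure D2:**
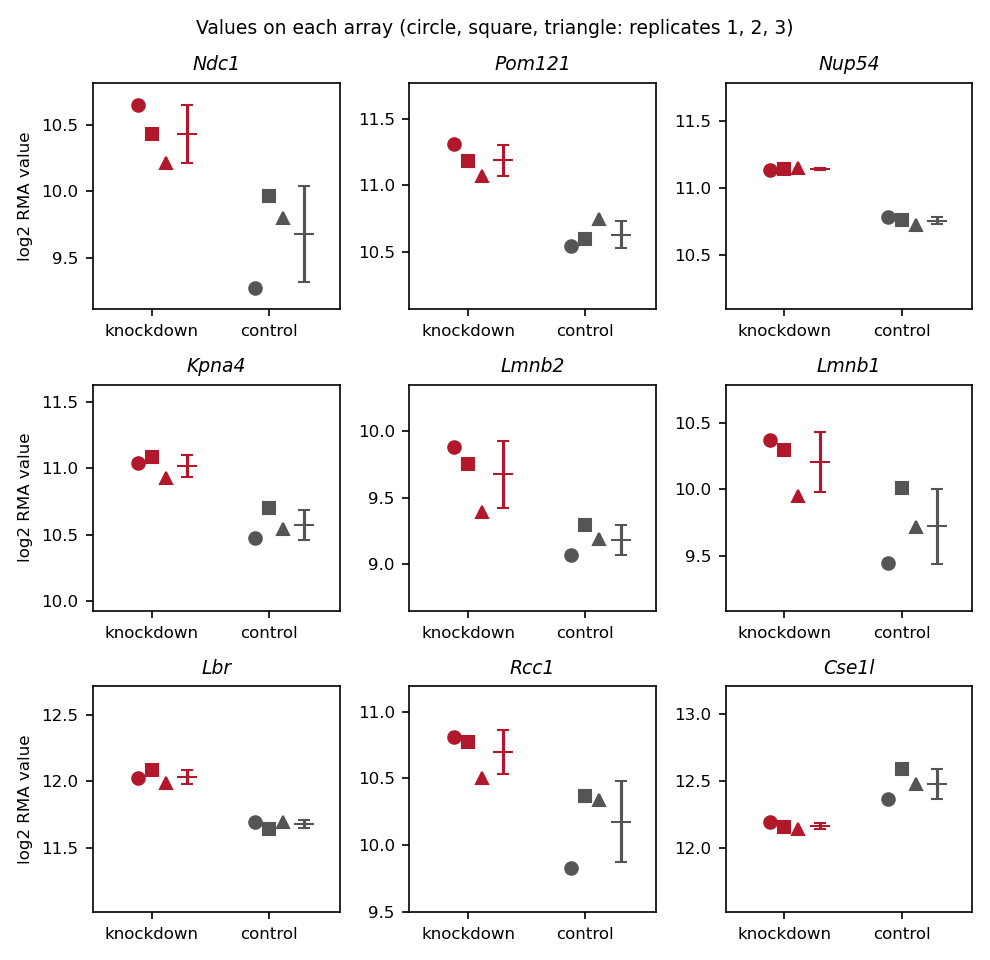
Log2 RMA value (y axis, the same span in each panel) of 9 members on the knockdown arrays (red, left) and the control arrays (grey, right), with the mean ± SD (n = 3) beside the points. *Nup54* is tight in both groups, *Ndc1* and *Rcc1* have a low control replicate 1, *Lmnb1* overlaps between groups, and *Cse1l* lies lower in knockdown cells.

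Importin alpha proteins recognise the classical nuclear localisation signal and bind importin beta, which takes the cargo through the pore. Of the 6 importin alpha genes, 4 were tested and *Kpna4* (importin alpha 3) rose. It had 11.04, 11.08 and 10.93 in knockdown cells, against 10.48, 10.70 and 10.54 in control cells. The groups were separated by more than either group's spread (SD 0.0811 and 0.116). The log2 fold change was 0.44 ± 0.12, 1.36-fold, with an adjusted p of 0.0384. *Kpna3*, its closest relative in the family, had 11.46, 11.58 and 11.85 in knockdown cells, against 11.81, 11.70 and 11.76 in control cells. The difference of -0.13 lay within the spread, and the third knockdown array was above all controls. The log2 difference between *Kpna4* and *Kpna3* on the same array averaged 0.57 more in knockdown cells than in control cells, with no overlap between groups; this pair was picked after its values were seen, so it is a description. Among the other family members, *Kpna7* had 0.18 ± 0.12 (adjusted p = 0.318), *Kpna2* 0.13, *Kpna1* 0.12 and *Kpna6* 0.06. The 3 clusters named *Kpna2* gave the same difference of 0.13 and moved together over the arrays, so their signals cannot be told apart.

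Of the 8 members of the importin beta family, 3 were tested and 0 passed. Positive values were found for 7 of the 8, beside 58.4% of all genes, and the median was 0.13. *Kpnb1*, which encodes importin beta 1, the partner of the importin alpha proteins, had the largest difference. It measured 12.57, 12.56 and 12.42 in knockdown cells, against 12.16, 12.32 and 12.21 in control cells. No value overlapped, and the difference of 0.28 ± 0.12 had an adjusted p of 0.144. *Ipo11* had 0.26 and *Ipo5*, an importer of ribosomal proteins and histones, had 0.24. *Ipo9*, *Ipo7*, *Ipo8* and *Ipo4* had values from 0.06 to 0.15, and *Ipo13* had -0.01.

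*Cse1l*, the exportin that returns importin alpha to the cytoplasm, was the member with the lowest log2 fold change. It had 12.19, 12.16 and 12.14 in knockdown cells, against 12.37, 12.59 and 12.47 in control cells. All knockdown values were below all control values, by -0.31 ± 0.12, and the adjusted p of 0.113 missed the threshold. It fell in 3 of 10 other settings of the fit, and in 0 of 6 fits with an array left out. The 3 were a filter on dim genes in place of variation (adjusted p = 0.0441), a trend in the prior variance (0.0467) and array weights (0.00440). In these 3 settings 6.42%, 6.38% and 26.7% of all tested genes fell. *Xpo1*, the receptor for cargo with a leucine-rich export signal, had 12.26, 12.41 and 12.27 in knockdown cells, against 12.22, 12.25 and 12.05 in control cells. The groups were barely apart, and the difference of 0.14 lay below the filter. Relative to its control mean, the difference between *Kpnb1* and *Cse1l* on the same array was 0.63, 0.64 and 0.52 in knockdown cells, against 0.03, -0.02 and -0.01 in control cells, again a pair chosen after its values were seen.

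The GTPase *Ran* itself did not separate the groups, with 11.70, 11.57 and 11.45 in knockdown cells, against 11.36, 11.77 and 11.62 in control cells. The log2 fold change was -0.01, with a 95% interval from -0.29 to 0.28. *Rcc1*, which encodes the chromatin-bound exchange factor that loads RAN with GTP, had 10.81, 10.78 and 10.51 in knockdown cells, against 9.83, 10.37 and 10.34 in control cells. Knockdown values were above all controls, and control replicate 1 was again the lowest. The difference of 0.52 ± 0.15 had an adjusted p of 0.0515, just outside the threshold. *Rcc1* rose in 4 of 10 other settings of the fit, and in 2 of 6 fits with an array left out. Among the 4 was the replicate number added as a block (adjusted p = 0.0478), where 2.04% of all tested genes rose.

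In the lamina and inner membrane group, 3 of 6 members were tested and *Lmnb2* rose. B-type lamins stay attached to the nuclear membrane and are made in nearly all cells, whereas lamin A and C are more a feature of differentiated cells. *Lmnb2* had 9.88, 9.76 and 9.39 in knockdown cells, against 9.07, 9.30 and 9.19 in control cells. The lowest knockdown value, of replicate 3, was close to the highest control value. The log2 fold change was 0.49 ± 0.14, 1.41-fold, with an adjusted p of 0.0461. *Lmnb1*, which encodes lamin B1, had a similar difference of 0.48 ± 0.16, but knockdown replicate 3 was below control replicate 2 and the adjusted p was 0.0735. Its values were 10.37, 10.29 and 9.95 in knockdown cells, against 9.45, 10.01 and 9.72 in control cells. *Lbr*, the lamin B receptor and an enzyme of sterol synthesis, had 12.02, 12.09 and 11.98 in knockdown cells, against 11.70, 11.64 and 11.70 in control cells. These groups were tight and did not overlap, and the difference of 0.35 ± 0.11 had an adjusted p of 0.0705. *Lmna*, for lamin A and C, had 0.06 with a 95% interval from -0.13 to 0.25, *Tmpo*, for the LAP2 proteins of the inner membrane, had 0.08, and *Emd*, for emerin, had -0.06, all 3 below the filter. The *Lmnb2* and *Lmna* difference on the same array averaged 0.44 more in knockdown cells than in control cells, without overlap. The same measure for *Lmnb1* and *Lmna* was 0.42, with overlapping groups, and both pairs were chosen after their values were seen.

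As a whole the members leaned upward by a small amount. Their median log2 fold change was 0.15, beside 0.03 over all genes, and ranged from -0.31 to 0.75. Positive values were found for 39 of 51 members (76.5%), against 58.4% of all genes. The knockdown arrays were above all control arrays for 26 members (51%), beside 12.8% of all genes, and below all control arrays for 3 members (5.88%), *Cse1l*, *Seh1l* and *Nup62cl*, beside 10.8% of all genes. These shares describe the list, whose members are not independent of each other. The list also holds few dim genes, unlike all genes, and the shares were not compared with those of genes of similar level. The part of signal level in these contrasts was therefore not tested. With the filter on dim genes, 7 of the 49 members kept rose, where 4.02% of all tested genes did. Without the variance filter, 4 of the 51 members rose (*Pom121*, *Nup54*, *Kpna4* and *Lbr*), where 0.973% of all genes did. With array weights 20 of the 28 tested members rose and 3 fell, in a setting where 29.1% of all tested genes rose and 26.7% fell.

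**Figure D3:**
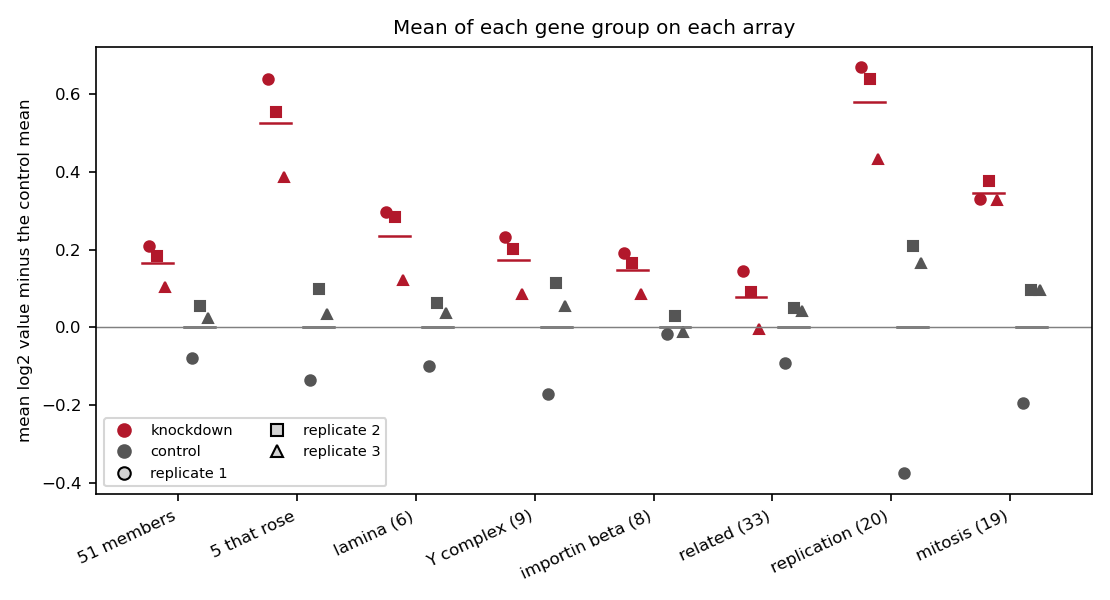
Mean log2 value of each gene group on each array, minus the control mean (y axis), with knockdown arrays in red left of control arrays in grey and a line at each group mean. Control replicate 1 is the lowest control in each of the 8 groups drawn, and knockdown replicate 3 is the lowest knockdown array for the 51 members at 0.10, above the highest control at 0.05.

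The arrays within a group were not equal. The mean over the 51 members, relative to the control mean, was 0.21, 0.18 and 0.10 in knockdown replicates 1, 2 and 3, against -0.08, 0.05 and 0.03 in control replicates 1, 2 and 3. Control replicate 1 had the lowest control value for 32 members (62.7%), beside 30.8% of all genes, and knockdown replicate 3 the lowest knockdown value for 31 members (60.8%), beside 44.8% of all genes. For the 5 members that rose, the array means were 0.64, 0.55 and 0.39 in knockdown cells, against -0.13, 0.10 and 0.03 in control cells. Among the role groups there were exceptions: control replicate 1 was not the lowest control mean for importin alpha, the inner ring, the central channel or the exportins, and knockdown replicate 3 had the highest knockdown mean for importin alpha (0.18). A list of 20 DNA replication genes had 0.67, 0.64 and 0.43 in knockdown cells, against -0.37, 0.21 and 0.17 in control cells, with the same arrays lowest in each group. In that list 11 of 19 tested genes rose and the median log2 fold change was 0.56. A list of 19 mitosis genes had a median of 0.38, and 5 of 16 tested genes rose. Of all tested genes, 2.39% rose. The knockdown arrays lay above all control arrays for 75% of the replication list and 78.9% of the mitosis list. The share was 51% of the members and 12.8% of all genes. The part of the share of dividing cells in the differences of the transport genes was not tested.

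When an array was left out, the 5 differences stayed positive, while most calls were lost. The log2 fold change ranged from 0.55 to 0.89 for *Ndc1*, 0.49 to 0.61 for *Pom121*, 0.39 to 0.63 for *Lmnb2*, 0.40 to 0.51 for *Kpna4* and 0.37 to 0.40 for *Nup54*. Each of them was lost when knockdown replicate 1, knockdown replicate 2, control replicate 1 or control replicate 3 was left out, and *Nup54* also without control replicate 2 (adjusted p = 0.0838). Without knockdown replicate 3, *Lmnb1*, *Rcc1* and *Lbr* passed as well, with adjusted p of 0.0334, 0.0362 and 0.0494.

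**Figure D4:**
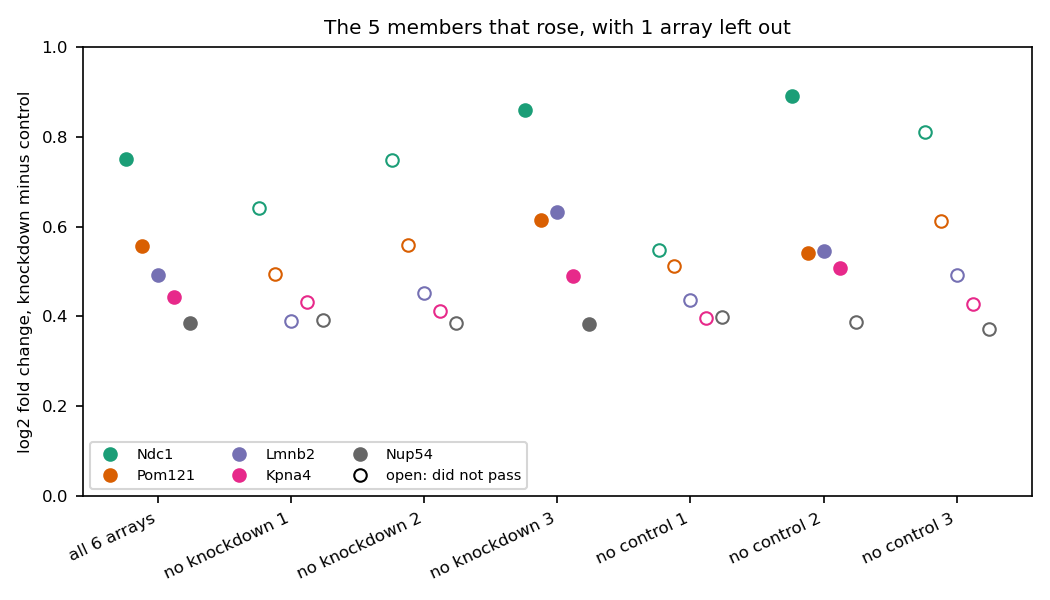
Log2 fold change (y axis, knockdown minus control) of the 5 members that rose, with all 6 arrays and with each array left out in turn (x axis). Filled points passed at an adjusted p under 0.05 and open points did not; the 5 values stay between 0.37 and 0.89, and open points outnumber filled ones.

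Other genes of nuclear transport and the envelope, which the symbols above do not cover, gave 0 calls among 15 tested of 33 measured, with 6 at an unadjusted p under 0.05, where 26.3% of all tested genes were. Their median log2 fold change was 0.10, with 25 of 33 above 0, beside 58.4% of all genes. The knockdown arrays lay above all control arrays for 11 (33.3%) and below them for 2 (6.06%), beside 12.8% and 10.8% of all genes. *Senp2*, a SUMO protease that is found at the pore, had 10.37, 10.47 and 10.37 in knockdown cells, against 10.00, 10.08 and 10.09 in control cells. The groups did not overlap, and the difference of 0.35 ± 0.11 had an adjusted p of 0.0740. *Rangap1*, the activator of RAN's GTPase in the cytoplasm, had 0.35 (adjusted p = 0.0881). *Lemd2*, a LEM-domain protein of the inner membrane, lay below all controls, with 10.35, 10.15 and 10.33 in knockdown cells, against 10.61, 10.55 and 10.73 in control cells (log2 fold change -0.35, adjusted p = 0.0857). The RAN-binding protein *Ranbp1* had 0.27, the torsin *Tor1a* 0.31 and the large linker *Syne1* -0.28, none of which passed.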

How the data were processed

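The arrays analysed were 3 of *Paupar* knockdown and 3 of control cells, with groups and replicate numbers from the labels; 0 sample columns were left unused. The authors made the deposited log2 expression values, 1 per transcript cluster, with RMA (background correction, quantile normalisation and probe summary). Tool versions for that step: not given in the sources used here. Of 35556 clusters, 21789 had 1 symbol in the platform annotation, 1621 had several and 12146 had none; only the first kind was used. The cluster with the highest mean was kept per gene (19938 genes), which left 51 members of 62 clusters. All 51 matched the RefSeq gene table of GRCm38.p6.

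The study's methods remove genes of little variation at a variance cut-off of 0.5 and do not say which measure this refers to. It was read here as removing the lower 50% of genes by interquartile range, which left 9969; this reading is an assumption. The test of knockdown against control was limma's moderated one (lmFit, eBayes; limma 3.58.1 under R 4.3.3), adjusted by Benjamini-Hochberg with a threshold of 0.05. Standard errors and 95% intervals are moderated. Genes below the filter were read from a fit to all 19938 genes and are not counted as tested. The fit was tested on simulated data with independent noise for each gene. The simulated arrays had no differences shared by many genes, so the test cannot give the error rate for the arrays analysed here. Motifs were searched on both strands of RefSeq promoters. The alternatives were another filter or none, centred or renormalised arrays, array weights, a variance trend, another choice of cluster, all clusters, a replicate block, and each array left out.

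Members, role groups and lists were chosen with earlier results of these data known. Named were all members that passed, and in each role group the member with the largest difference that did not pass; further members were named after their values were seen.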

Additional observations from a re-analysis of the deposited data

How the results depend on the processing

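The median log2 fold change of the members, 0.15, stayed between 0.13 and 0.18 when each array was left out, and was 0.17 with arrays centred on the median and 0.14 after quantile normalisation over the named genes. The count of members that changed was less stable. It was 5, and 8 with a filter on dim genes (7 rose and 1 fell, beside 401 and 640 of all genes), 8 with a variance trend (7 rose and 1 fell, beside 335 and 636), 23 with array weights, and 0 with all clusters in the fit (13 at an unadjusted p under 0.05); leaving out each array gave 0 to 8. Over all genes the count was 752, and 5561 with array weights (2896 rose and 2665 fell, against 238 and 514), 0 of 17778 with all clusters in the fit (3015 at an unadjusted p under 0.05), and 112 to 1239 with each array left out. For the related transport and envelope genes it was 0, and 1 without the variance filter (*Senp2*), 3 with the filter on dim genes (*Senp2*, *Rangap1* and *Lemd2*) and 13 with array weights. The cause of these shifts was not tested. The deviations of same-numbered arrays from their group means had correlations of -0.34, 0.10 and 0.08. Other pairs of a knockdown and a control array ranged from -0.37 to 0.44. With 3 arrays a group these correlations depend on each other and cannot decide what same-numbered arrays share. With the replicate block 4 members (*Ndc1*, *Pom121*, *Lmnb2* and *Rcc1*), 680 genes overall and 0 related genes changed. Single calls were also lost: *Ndc1* and *Lmnb2* without the variance filter, *Nup54* with a filter by sample variance (6 members passed), under the replicate block or with the cluster of largest range (4 members passed), and *Kpna4* under the block. With 3 arrays a group, precision is limited by their number, and clusters that are dim, such as *Nup62cl*, may not report a change.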
